A study of Gallus gallus with 12 samples.

Results

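Circumferential smooth muscle from the midgut of chick (Gallus gallus) embryos was compared between 4 samples that misexpressed the transcription factor gene Hoxd13 and 4 control samples. These 8 of the 12 samples of the series were chosen by their labels, and their circumferential muscle columns made up 8 of the 36 columns of counts. Counts per gene came from Light-seq, in which RNA is reverse transcribed on a tissue section and regions drawn by hand receive DNA barcodes by light before the cDNA is sequenced. Each sample was 1 library with barcodes for 3 layers, namely the circumferential muscle on its inner side, the inner longitudinal muscle and the mesenchyme beneath the epithelium. The design text names the mesenchyme for the study's own tests of conditions, and the muscle columns were deposited beside it.

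The Hoxd13 midgut samples came from embryos electroporated with RCAS-Hoxd13, a replicating avian retrovirus that carries Hoxd13. The midgut samples, here the controls, came from embryos electroporated with RCAS-mGFP, the same type of virus with a fluorescent protein. Both groups received the virus in the splanchnic lateral plate mesoderm, the layer that forms the gut wall, at midgut level and at Hamburger-Hamilton stage 17. All embryos were incubated at 38 °C, and the titles give embryonic day 14 for every sample. Hindgut samples with RCAS-mGFP (4 libraries) were not compared but entered the fit. There they took part in the low-count filter, the scaling and the estimate of the spread. With Hoxd13 midgut and midgut columns alone, 272 genes passed that filter, beside 349 with hindgut included. Whether replicates are separate embryos is not given in the labels, so the p-values measure only the spread between these samples, and they do not give the share of cells that carried the virus.

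Circumferential smooth muscle runs round the gut tube and contracts by sliding actin and tropomyosin thin filaments past myosin thick filaments, anchored at dense bodies and wrapped in a matrix of collagens, basement membrane and elastic fibres. HOX genes code for transcription factors that give position along the body axis. The 5′ members of each cluster, such as HOXD13, are used at the hind end of the axis, hindgut included, and the midgut normally lacks them.

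The circumferential columns held 55669, 39977, 70090 and 49249 counts in Hoxd13 midgut replicates 1 to 4, and 26798, 40017, 39333 and 33245 counts in midgut replicates 1 to 4. The means were 53746 ± 12657 in Hoxd13 midgut and 34848 ± 6170 in midgut (SD, n = 4 each; exact two-sided permutation test, p = 0.0571, where 70 assignments allow no p below 0.0286). With 0 counts, levels up to 3 counts remain possible at 95% confidence, which is 42.8 to 75.0 CPM (counts in 1000000) in Hoxd13 midgut and 75.0 to 112 CPM in midgut. Only 349 genes passed the low-count filter, of 12365 with any count in this layer. Against the mesenchyme the layer matched its label for most smooth muscle markers. ACTA2, ACTG2, MYH11, TAGLN, CNN1, DES, MYL9 and MYLK, which build the contractile apparatus, were each higher in the circumferential column of 8 of 8 samples. SMTN, TPM2, CALD1, SYNM and CSRP1 also reached 8 of 8, and TPM1, SYNPO2, PDLIM7 and ACTA1 reached 7. LMOD1 and KCNMB1 reached 6, MYOCD, LPP and PDLIM3 5, and ACTC1 1. The median was lower than in the longitudinal muscle for ACTA2 (494 and 649 CPM of total counts), LMOD1, PDLIM3, MYOCD and LPP. It was 0 in both layers for ACTC1 and higher for the rest. The epithelial genes EPCAM and CDH1 were each higher in the mesenchymal column in 7 of 8.

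HOXD13 itself was present in every Hoxd13 midgut sample and listed at 0 in every midgut sample. It had 44, 17, 42 and 38 counts in Hoxd13 midgut replicates 1 to 4, and 0 counts in each of 4 midgut replicates. The groups did not overlap, and replicate 2 was lowest. Its 141 counts lay, per total counts, at 30.5-fold a floor of 3 counts over all 4 midgut samples. The lower 95% bound of the ratio was 24.5, and HOXD13 passed edgeR's quasi-likelihood test (adjusted p = 8.22e-05). Relative to total counts its level was 647 ± 171 CPM in Hoxd13 midgut (SD, n = 4). Counts per gene do not separate the viral transcript from the endogenous one, and in these regions fewer cells with HOXD13 and less HOXD13 RNA per cell cannot be told apart. The hindgut muscle of the same layer held 0, 4, 1 and 0 counts.

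HOXD13 was found in all 3 layers of the misexpressing gut. The longitudinal muscle had 92 counts in Hoxd13 midgut and 0 in midgut, and the mesenchyme had 808 and 0. Per total counts this was 927 ± 259 CPM in the longitudinal muscle, 647 ± 171 CPM in the circumferential muscle and 546 ± 50.1 CPM in the mesenchyme of the Hoxd13 midgut (SD, n = 4 each). The pooled level with its 95% counting interval was 933 CPM (752 to 1144) in the longitudinal muscle, 656 CPM (552 to 773) in the circumferential muscle and 549 CPM (512 to 588) in the mesenchyme. The sample ranges of the circumferential muscle overlapped those of both other layers, but the layers are paired within a sample. In replicates 1 to 4 the longitudinal muscle had 810, 617, 1136 and 1147 CPM. The circumferential muscle had 790, 425, 599 and 772 CPM, and the mesenchyme 579, 546, 475 and 584 CPM. The longitudinal muscle was the higher of the 2 muscles in every sample. The circumferential muscle was above the mesenchyme except in replicate 2. This order was not tested.

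**Figure D1:**
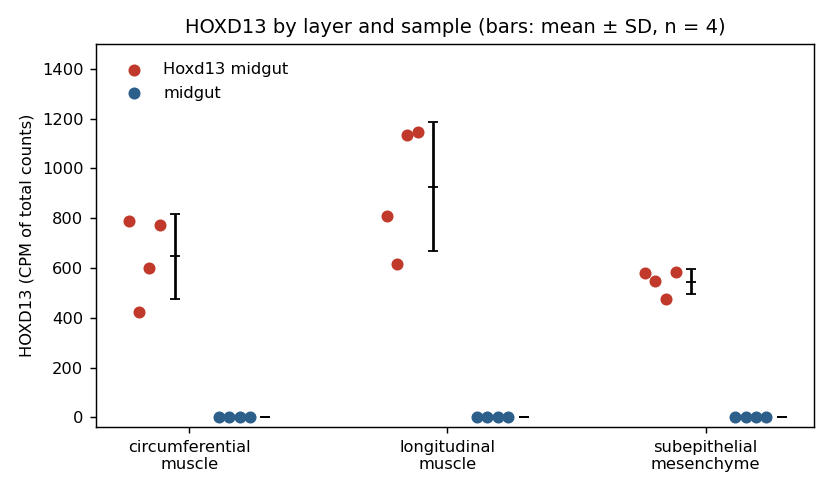
HOXD13 level in CPM of total counts for each of 4 Hoxd13 midgut samples (red) and 4 midgut samples (blue) in 3 layers; points are samples and bars are mean ± SD. Hoxd13 midgut samples lie between 425 and 790 CPM in the circumferential muscle, and every midgut sample lies at 0.

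No other posterior HOX gene was counted in the Hoxd13 midgut muscle of this layer, at a depth where low levels can be missed. In the deeper mesenchyme the list had 824 counts in Hoxd13 midgut, 808 of them HOXD13. There 6 of the 13 genes had no count in the 8 samples. Of 13 posterior HOX genes in the file, 11 had no count in the 8 samples, among them HOXA13, HOXB13, HOXA11, HOXD12 and HOXD11, and HOXC9 had 0 counts in Hoxd13 midgut and 3 in midgut. Anterior and middle HOX genes, which the midgut does use, were thinly counted, and 0 of 21 passed the low-count filter. Summed, they had 102 counts in Hoxd13 midgut and 94 in midgut, or 433 to 653 CPM in Hoxd13 midgut and 532 to 732 CPM in midgut. HOXC8 had 22 counts in Hoxd13 midgut and 19 in midgut, and HOXB3 had 19 and 16. HOXA4 and HOXA5 each had 2 counts in Hoxd13 midgut and 7 in midgut, with a ratio of 0.185 and a 95% counting interval of 0.0188 to 0.973. Such ratios, here and below, are relative to total counts. On that scale 244 of the 349 tested genes had negative log2 changes (median -0.21). A ratio somewhat under 1 was therefore common, and intervals that end just under 1 do not set a gene apart.

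Across the 349 genes tested, 17 passed the threshold of 0.05 on the adjusted p (4.87%). Of these, 9 were higher in Hoxd13 midgut (2.58%) and 8 lower (2.29%), and 70 genes had an unadjusted p under 0.05. Scaled by total counts, which moved the median change of all genes to -0.21, 5 were higher and 19 lower. The count was 37 without hindgut replicate 1, and 5 to 9 with any 1 of the 8 Hoxd13 midgut and midgut samples left out. In each of the 17 the 4 samples of a group lay entirely on one side of the other group. Such separation was found in 60 of the 349 genes (17.2%). Levels of single genes below are CPM on TMM library sizes, which allow for a few genes taking a large share of a library, and changes are log2 fold changes of Hoxd13 midgut over midgut ± SE.

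The genes that rose were mostly unnamed. Beside HOXD13, only TUT4 has a symbol, and the other 7 carry only Ensembl identifiers. TUT4, a terminal uridylyltransferase that adds uridines to the 3′ ends of RNAs, stood at 13614, 12498, 10954 and 7842 CPM in Hoxd13 midgut and at 2382, 4050, 5049 and 3785 CPM in midgut. The lowest Hoxd13 midgut sample was above the highest midgut sample. TUT4 rose by 1.55 ± 0.28 (adjusted p = 0.0025). The identifier-only genes with the smallest p were ENSGALG00000041922 and ENSGALG00000029193. ENSGALG00000041922 had 1117, 1190, 849 and 610 CPM in Hoxd13 midgut and 372, 185, 317 and 347 CPM in midgut, a rise of 1.64 ± 0.27 (adjusted p = 0.0011). ENSGALG00000029193 had 906, 1055, 1057 and 1111 CPM in Hoxd13 midgut and 670, 208, 439 and 404 CPM in midgut, a rise of 1.31 ± 0.26 (adjusted p = 0.0047). Genes with only an identifier were 39 of the 349 tested. Of these 39, 7 rose, 0 fell and the median change was 0.41, beside 2 risen, 8 fallen and a median of -0.05 among the 310 genes with a symbol. Identifier-only genes held 15.9% to 17.9% of all counts in Hoxd13 midgut and 12.5% to 16.9% in midgut. The next gene in p was MTSS2, which bends membranes and binds actin. Its levels were 1517, 1055, 2034 and 1634 CPM in Hoxd13 midgut and 745, 602, 1293 and 838 CPM in midgut, with overlap. The change of 0.85 ± 0.29 had an adjusted p of 0.094. MTSS2 passed edgeR's test when hindgut was left out of the fit (adjusted p = 0.021) and when hindgut replicate 1 was (adjusted p = 0.046). MTSS2 also passed with no filter (adjusted p = 0.032) and with the replicate number as a block (adjusted p = 0.020).

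**Figure D2:**
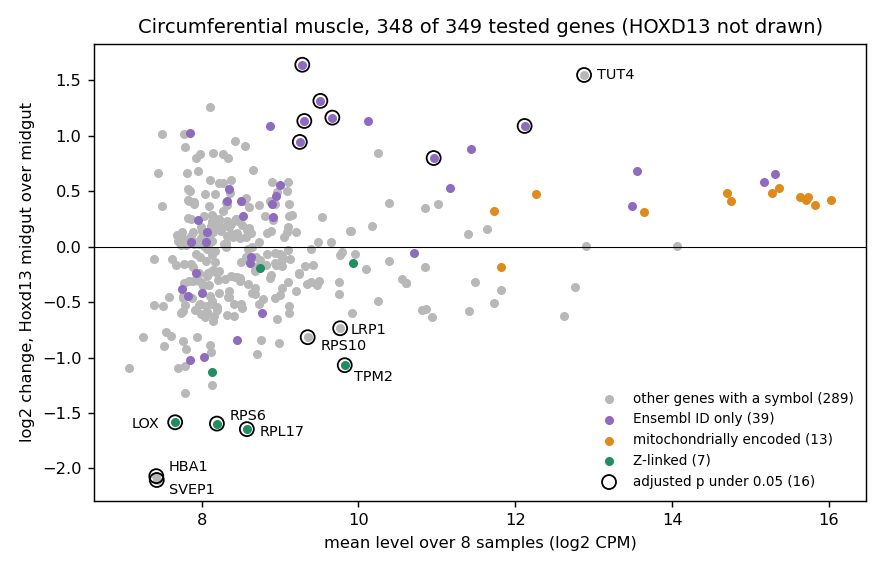
Log2 change of Hoxd13 midgut over midgut against the mean log2 CPM of the 8 samples for the genes tested in the circumferential muscle, without HOXD13, which is at 0 in midgut. Rings mark genes past the adjusted threshold; purple points are genes with only an Ensembl identifier, orange mitochondrially encoded, green Z-linked. TUT4 is the highest named gene at 1.55, and SVEP1 and HBA1 are lowest at -2.10 and -2.07.

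The genes that fell were TPM2, SVEP1, LRP1, RPS10, RPL17, RPS6, HBA1 and LOX. TPM2, the beta-tropomyosin that lies along the actin thin filament, was at 717, 433, 544 and 632 CPM in Hoxd13 midgut and at 1303, 1064, 1293 and 1271 CPM in midgut. Every Hoxd13 midgut sample lay below every midgut sample, and TPM2 fell by 1.07 on the log2 scale (SE 0.21, adjusted p = 0.0047). SVEP1, a large secreted matrix protein involved in cell adhesion, was at 126, 81.2, 0 and 65.3 CPM in Hoxd13 midgut and at 261, 301, 341 and 202 CPM in midgut. It fell by 2.10 (SE 0.52, adjusted p = 0.032), on 12 counts in Hoxd13 midgut and 41 in midgut. LRP1, an endocytic receptor for matrix proteins, proteases and lipoproteins, was at 611, 730, 657 and 610 CPM in Hoxd13 midgut and at 1266, 1088, 1024 and 982 CPM in midgut. It fell by 0.74 (SE 0.19, adjusted p = 0.032), the smallest of the 8 decreases. LOX, the lysyl oxidase that crosslinks collagen and elastin, was at 126, 135, 80.1 and 65.3 CPM in Hoxd13 midgut and at 372, 347, 293 and 202 CPM in midgut. It fell by 1.58 (SE 0.44, adjusted p = 0.038). The calls on the fallen genes rested on all samples, and for SVEP1, HBA1, LOX, RPS6 and RPL17 also on few counts. Leaving out 1 sample at a time, TPM2 passed in 6 of 8 fits and each of the other 7 in 0 or 1 of 8. With no low-count filter none of the 8 passed edgeR's test, and the 8 of the 17 calls that were kept were all rises. TPM2, LOX, LRP1 and RPS10 also lost their calls with a minimum count of 3, and LOX, LRP1, RPS10 and RPS6 with DESeq2. SVEP1, HBA1 and LOX passed the low-count filter only with hindgut columns in the fit. With Hoxd13 midgut and midgut columns alone they were not tested. Of the genes that rose, HOXD13, TUT4, both identifiers above and 1 other identifier-only gene passed in 8 of 8 fits with 1 sample left out. The remaining identifier-only genes that rose were as unstable as the falls, and passed in 0, 0, 1 and 2 of 8.

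**Figure D3:**
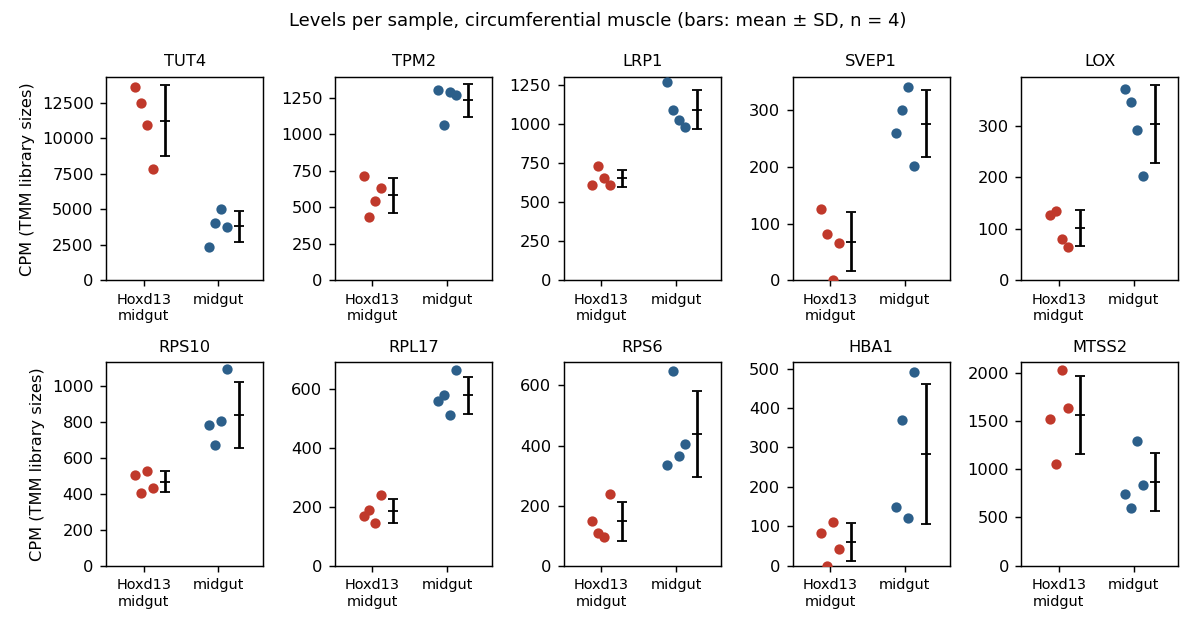
CPM on TMM library sizes for the named genes past the threshold other than HOXD13. MTSS2, which did not pass in the fit of 12 columns, is drawn for comparison. Red points are Hoxd13 midgut samples, blue points midgut samples and bars mean ± SD (n = 4). The groups do not overlap in any panel except MTSS2, and for HBA1 the highest Hoxd13 midgut sample (112 CPM) comes closest to the lowest midgut sample (122 CPM).

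Sex-linked genes separated the groups as well. In birds females carry a W and a Z chromosome and males a pair of Z chromosomes. The 4 W-linked genes in the file together had 9, 7, 10 and 6 counts in Hoxd13 midgut and 0 in each of 4 midgut samples. Z-linked genes summed to 8675 to 9828 CPM of total counts in Hoxd13 midgut and to 14180 to 16002 CPM in midgut, without overlap. Of 7 Z-linked genes tested, 4 fell (57.1%, beside 2.29% of all genes): TPM2, LOX, RPL17 and RPS6. All 7 had negative changes, with a median of -1.13, and in 5 the Hoxd13 midgut lay below midgut in every sample, beside 8.88% of all genes tested. NREP, also Z-linked and also separated, had a change of -1.13 ± 0.35 (adjusted p = 0.069; chosen after its values were seen). NREP passed edgeR's test when hindgut was left out of the fit (adjusted p = 0.022) and when hindgut replicate 1 was (adjusted p = 0.027). The fallen genes with a known place on other chromosomes were LRP1, RPS10 and HBA1, 3 of 273 tested there. SVEP1 had no chromosome in the table used. W-linked counts went with the groups in all 8 samples. For any gene but the misexpressed HOXD13, an effect of Hoxd13 and a difference between female and male tissue therefore cannot be told apart here. TUT4 and the 7 identifier-only genes that rose had no chromosome in the table either, so whether they are sex-linked is not known here.

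Beyond TPM2, no gene of the contractile apparatus passed the test. Of 23 smooth muscle genes, 15 were tested, 0 rose and TPM2 alone fell, beside 2.58% higher and 2.29% lower among all genes tested, so a count of 0 or 1 is near the background. The median change was -0.17 beside 0.0012 over all genes tested. Of 11 thin filament genes, TPM2 again was the only one called. ACTG2, the enteric smooth muscle actin, was at 3772, 4815, 4356 and 6818 CPM in Hoxd13 midgut and at 6142, 4096, 9488 and 10805 CPM in midgut. The groups overlapped, and the change of -0.63 ± 0.25 did not pass (adjusted p = 0.18). TAGLN, an actin-binding marker of smooth muscle, changed by 0.40 ± 0.23 and ACTA2, the vascular-type smooth muscle actin, by 0.38 ± 0.27 (adjusted p = 0.36 and 0.44; both chosen after their values were seen). ACTB, a cytoplasmic actin, had 7658 ± 1254 CPM in Hoxd13 midgut and 7646 ± 1257 CPM in midgut (SD, n = 4 each), a change of 0.0031 with a 95% interval of -0.38 to 0.39.

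MYH11, the smooth muscle myosin heavy chain, was at 1180, 1082, 1089 and 2178 CPM in Hoxd13 midgut and at 1973, 972, 1561 and 2485 CPM in midgut, with overlapping groups and a change of -0.32 (95% interval -0.89 to 0.24). MYLK, the kinase that switches on contraction by phosphorylating the light chain, changed by -0.13 (-0.57 to 0.31). MYL9, that light chain, changed by -0.05 (-0.55 to 0.46), and its sign differed between scalings. Of 13 dense body, adhesion and intermediate filament genes, 0 passed (median 0.02). DES, the muscle intermediate filament, was at 998 ± 230 CPM in Hoxd13 midgut and 908 ± 117 CPM in midgut (SD, n = 4 each), a change of 0.14 (-0.39 to 0.68), which turned to -0.06 under scaling by total counts. ZYX, an adhesion protein, separated the groups without passing, at 527, 460, 593 and 414 CPM in Hoxd13 midgut and 298, 301, 244 and 404 CPM in midgut (0.69 ± 0.26, adjusted p = 0.13; chosen after its values were seen).

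Most matrix genes tested had negative changes, beside 173 of all 349 genes, and SVEP1 and LOX passed, beside 2.29% of all genes that fell. The counts of calls in each matrix list in the fit of 12 columns, 0 or 1, are near that background. Of 10 fibrillar and associated collagens tested, 0 passed and 9 had negative changes (median -0.30). Of 9 basement membrane genes, 0 passed and 7 were negative (median -0.42). Of 8 glycoproteins and proteoglycans, SVEP1 fell and 6 were negative (median -0.46). Of 9 elastic fibre and crosslinking genes, LOX fell and all 9 were negative (median -0.31). These medians stayed negative under each of the scalings tried, and with no low-count filter, which moved the median of the 349 genes to 0.25, the collagen median was -0.04 with 5 of 10 negative.

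Of the 10 collagens, COL3A1, COL1A2 and COL12A1 separated the groups, beside 17.2% of all genes tested. COL3A1, a fibril-forming chain, was at 2803, 2353, 3251 and 2745 CPM in Hoxd13 midgut and at 4095, 4304, 3951 and 3553 CPM in midgut. Every Hoxd13 midgut sample lay below every midgut sample, but the change of -0.51 ± 0.18 did not pass (adjusted p = 0.11). COL1A2 was at 1812, 2164, 2514 and 2244 CPM in Hoxd13 midgut and at 2718, 4628, 2854 and 2802 CPM in midgut, also separated and also not past the threshold (-0.58 ± 0.20, adjusted p = 0.11). COL1A1, its partner chain, was at 5121, 6384, 7335 and 5468 CPM in Hoxd13 midgut and at 6850, 10506, 6952 and 6876 CPM in midgut, with overlap (-0.36 ± 0.19, adjusted p = 0.32). Scaled by total counts, COL3A1 and COL1A2 were among 3 collagens that passed. COL12A1, a collagen that decorates fibrils, was at 190, 81.2, 160 and 131 CPM in Hoxd13 midgut and at 261, 324, 366 and 260 CPM in midgut (-1.08 ± 0.36, adjusted p = 0.094; chosen after its values were seen). COL12A1 passed edgeR's test when hindgut was left out of the fit (adjusted p = 0.046) and when scaled by total counts (adjusted p = 0.035). For the collagen VI chain COL6A3 the change was -0.06 (95% interval -0.43 to 0.31).

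FN1, fibronectin, was at 1559, 1217, 1553 and 1677 CPM in Hoxd13 midgut and at 2382, 1828, 2244 and 2456 CPM in midgut. The groups did not overlap, and the change of -0.56 ± 0.21 did not pass in the fit of 12 columns (adjusted p = 0.15). FN1 passed edgeR's test when hindgut was left out of the fit and when hindgut replicate 1 was (adjusted p = 0.046 in each). LAMA5, a laminin chain of basement membranes, was at 211, 379, 400 and 457 CPM in Hoxd13 midgut and at 409, 833, 634 and 722 CPM in midgut (-0.87 ± 0.26, adjusted p = 0.061). LAMA5 passed edgeR's test when hindgut was left out of the fit (adjusted p = 0.040) and when hindgut replicate 1 was (adjusted p = 0.044). Scaled by total counts, LAMA5 passed as well (adjusted p = 0.034). FBN3, a fibrillin, changed by -0.53 ± 0.25 (adjusted p = 0.22). THBS2, thrombospondin 2, was too low for the main test and had 14, 4, 12 and 6 counts in Hoxd13 midgut and 0, 2, 1 and 0 counts in midgut. It was the higher in Hoxd13 midgut, with a ratio of 7.78 (95% counting interval 2.46 to 39.5). In edgeR's test THBS2 passed with a minimum count of 3 (log2 change 3.15, adjusted p = 0.024). It also passed with no filter (log2 change 3.26, adjusted p = 0.0034). Other untested matrix genes went both ways. FBLN1 had 31 counts in Hoxd13 midgut and 7 in midgut (ratio 2.87, 1.24 to 7.73). The Z-linked VCAN had 19 and 4 (3.08, 1.02 to 12.4). ELN, elastin, had 15 and 35 (0.278, 0.141 to 0.522). POSTN had 13 and 21 (0.401, 0.185 to 0.840), and SPON2 had 0 and 11.

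**Figure D4:**
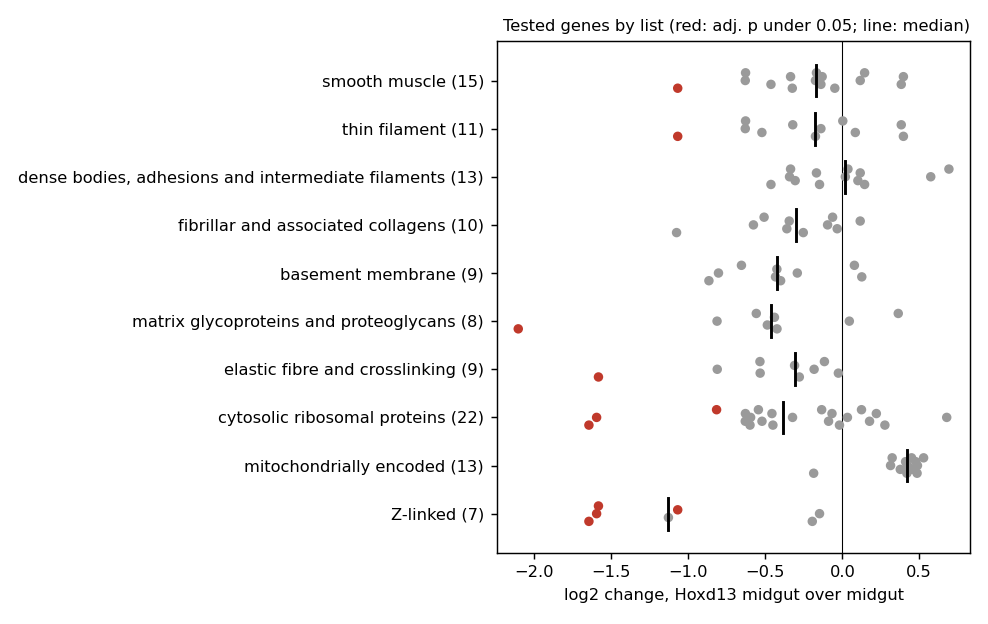
Log2 change of Hoxd13 midgut over midgut for the tested genes of 10 lists; each point is a gene, red where the adjusted p is under 0.05, and the black line is the list's median. Dense body genes lie around 0 (median 0.02), matrix and ribosomal protein lists lie below it, 12 of 13 mitochondrially encoded genes lie above it, and Z-linked genes have the lowest median at -1.13.

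Ribosomal protein genes and mitochondrially encoded genes lay mostly on opposite sides. Of 22 cytosolic ribosomal protein genes tested, RPS10, RPL17 and RPS6 fell (beside 2.29% of all genes tested), 0 rose, and 16 were negative (median -0.39), beside 173 of all 349. With no low-count filter 0 of the 22 passed and 12 were negative. RPS10, a small-subunit protein, was at 506, 406, 528 and 436 CPM in Hoxd13 midgut and at 782, 671, 805 and 1098 CPM in midgut (-0.82 ± 0.21, adjusted p = 0.032). RPL17, of the large subunit, was at 169, 189, 144 and 240 CPM in Hoxd13 midgut and at 558, 579, 512 and 664 CPM in midgut (-1.65 ± 0.43, adjusted p = 0.032). RPS6, the small-subunit protein phosphorylated by S6 kinase, was at 148, 108, 96.1 and 240 CPM in Hoxd13 midgut and at 335, 648, 366 and 404 CPM in midgut (-1.60 ± 0.42, adjusted p = 0.033). RPL17 and RPS6 are Z-linked, and counts of ribosomal protein genes are uncertain where reads match pseudogenes or W-linked copies. RPS3A, the next in p, was at 1475, 1461, 1682 and 1547 CPM in Hoxd13 midgut and 2382, 2708, 2439 and 2022 CPM in midgut. It lay below midgut in every sample, without passing in the fit of 12 columns (-0.63 ± 0.19, adjusted p = 0.060). RPS3A passed edgeR's test when hindgut was left out of the fit (adjusted p = 0.021) and when hindgut replicate 1 was (adjusted p = 0.020). With the replicate number as a block RPS3A also passed (adjusted p = 0.047).

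Mitochondrially encoded genes, which code for respiratory chain subunits, took 47.4%, 42.0%, 47.7% and 45.8% of the counts in Hoxd13 midgut and 43.3%, 35.2%, 38.8% and 39.5% in midgut. The means of 45.7% ± 2.65 in Hoxd13 midgut and 39.2% ± 3.34 in midgut (SD, n = 4 each) differed by 6.53 percentage points (exact two-sided permutation test, p = 0.0571). Of 13 such genes, 12 were positive (median 0.42), 10 lay above midgut in every sample, beside 8.31% of all genes tested, and 0 passed. MT-CO1, a core subunit of cytochrome oxidase, had a change of 0.42 ± 0.23 (adjusted p = 0.34) and ND4, a subunit of complex I, 0.45 ± 0.21 (adjusted p = 0.22). ND6 was the exception at -0.19 ± 0.18. Between 7 and 9 of the 13 passed when hindgut was left out of the fit, when hindgut replicate 1 was left out or when no low-count filter was applied. The Hoxd13 midgut columns were also deeper on average, and the part of depth or RNA quality in this was not tested.

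Signalling genes were thinly covered. No BMP or retinoic acid gene passed the low-count filter, and of the TGF-beta, Hedgehog, WNT, NOTCH and growth factor lists 9 genes did, none with a call in the fit of 12 columns. CDON, a Hedgehog co-receptor, was at 63.2, 189, 144 and 109 CPM in Hoxd13 midgut and at 335, 301, 366 and 260 CPM in midgut. The groups did not overlap, and the change of -1.32 ± 0.43 had an adjusted p of 0.082. CDON passed when hindgut was left out of the fit (adjusted p = 0.021) and when hindgut replicate 1 was (adjusted p = 0.031). BOC, its partner co-receptor, had 11 counts in Hoxd13 midgut and 24 in midgut. Its ratio was 0.297, with a 95% counting interval of 0.131 to 0.630. The Hedgehog list as a whole overlapped, at 1041 to 1351 CPM in Hoxd13 midgut and 1111 to 1762 CPM in midgut. Other members had ratios on both sides of 1, among them FOXF2 at 1.89 (0.926 to 4.15) and FOXF1 at 0.778 (0.370 to 1.66). PDGFA, a platelet-derived growth factor ligand, was at 211, 649, 304 and 370 CPM in Hoxd13 midgut and at 335, 92.6, 122 and 116 CPM in midgut. Midgut replicate 1 lay within the Hoxd13 midgut range, and the change of 1.26 ± 0.57 did not pass (adjusted p = 0.22), but did when hindgut was left out of the fit (adjusted p = 0.040). GREM1, a secreted BMP antagonist, had 11 counts in Hoxd13 midgut and 0 in midgut, under the low-count filter. NRP2, a co-receptor for semaphorins, was below midgut in every sample (-0.63 ± 0.27, adjusted p = 0.19), and the axon guidance list summed to 1677 to 2107 CPM in Hoxd13 midgut and 2420 to 3122 CPM in midgut. SLIT2, a guidance ligand for ROBO receptors, had 8 counts in Hoxd13 midgut and 23 in midgut (ratio 0.226, 95% counting interval 0.0872 to 0.522).

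Gap junction gene GJA5 (connexin 40), which couples cells electrically, had 4, 3, 8 and 4 counts in Hoxd13 midgut and 0 in every midgut sample. The 19 counts lay at 4.11-fold the midgut floor over the group (lower 95% bound of the ratio 3.03), below the low-count filter. With no filter GJA5 passed (adjusted p = 0.0087). AKR1B1, an aldose reductase, had 18 counts in Hoxd13 midgut and 0 in midgut, at 3.89-fold that floor (lower 95% bound of the ratio 2.85), and passed with no filter only. The mesenchyme had 80 AKR1B1 counts in Hoxd13 midgut and 76 in midgut, a change of 0.18 ± 0.27 that did not pass edgeR's test (adjusted p = 0.79). ETV6, an ETS-family repressor, had 28 counts in Hoxd13 midgut and 6 in midgut in the circumferential muscle (ratio 3.03, 95% counting interval 1.23 to 8.94).

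Markers of other cell types differed in part between the groups. HBA1, an alpha-type globin of red blood cells, fell by 2.07 on the log2 scale (SE 0.56, adjusted p = 0.038), at 84.3, 0, 112 and 43.6 CPM in Hoxd13 midgut and 149, 370, 122 and 491 CPM in midgut. Globin genes can share reads. On TMM library sizes, the 5 erythroid genes summed to 0 to 160 CPM in Hoxd13 midgut and 171 to 896 CPM in midgut, with HBZ at 0 in all 8 samples. Fibroblast and mesenchyme markers (13 genes, COL1A1, COL1A2 and COL3A1 among them) summed to 10980 to 14237 CPM in Hoxd13 midgut and 14850 to 20711 CPM in midgut, and 5 of 5 tested had negative changes (median -0.51). These collagens held most of the sum (1188, 426 and 549 of 2409 counts in Hoxd13 midgut). Under the low-count filter the members went both ways. Ratios of summed counts were 1.89 for FOXF2, 1.46 for TCF21, 1.30 for TWIST1 and 1.07 for FBN2. They were 0.527 for PDGFRA, 0.665 for VIM, 0.648 for DPT (2 counts in each group) and 0.778 for FOXF1. Mesothelial markers summed to 169 to 288 CPM in Hoxd13 midgut and 318 to 833 CPM in midgut, with MSLN and KRT5 at 0. PODXL held most of these sums, with 33 of 46 counts in Hoxd13 midgut and 61 of 80 in midgut. Its groups overlapped, and it did not pass edgeR's test in the fit of 12 columns (adjusted p = 0.14). In Hoxd13 midgut and midgut, LRRN4 had 6 and 16 counts, ALDH1A2 5 and 2, WT1 1 and 0, and BNC1 1 and 1. Epithelial markers overlapped, at 1263 to 3165 CPM in Hoxd13 midgut and 1266 to 2592 CPM in midgut (18 genes, FABP2 and CLDN10 at 0). Their ratios of summed counts went both ways. They were 1.45 for CDH17, 1.44 for KRT18 and 1.37 for VIL1, and 0.576 for ANPEP, 0.741 for EPCAM and 0.940 for APOA1. MEP1B, a brush border protease outside that list, was chosen after its values were seen. It had 0, 0, 2 and 0 counts in Hoxd13 midgut and 3, 5, 8 and 9 in midgut. MEP1B passed edgeR's test with a minimum count of 3 (adjusted p = 0.035). Enteric neuron and glia markers summed to 609 to 812 CPM in Hoxd13 midgut and 805 to 1018 CPM in midgut (19 genes, 4 at 0). Endothelial and immune markers held 30 and 13 counts in Hoxd13 midgut and 28 and 14 in midgut, with PTPRC at 0. The part of differing cell content in the matrix and other results above was not tested.

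The same comparison in the neighbouring layers gives the context for these values. The layers come from the same 8 libraries, so they are not independent. In the mesenchyme 108 of 4176 genes passed (2.59%), and in the longitudinal muscle 21 of 144 (14.6%). TUT4 changed by 1.55 ± 0.28 in the circumferential muscle, 1.37 ± 0.25 in the longitudinal muscle and 1.21 ± 0.25 in the mesenchyme, and passed in each. TPM2 changed by -1.07 ± 0.21, -1.45 ± 0.35 and -0.52 ± 0.15 in that order of layers, the last with an adjusted p of 0.077. SVEP1 was at -2.10 ± 0.52 in the circumferential muscle and -1.17 ± 0.21 in the mesenchyme, and LOX at -1.58 ± 0.44 and -0.76 ± 0.18, past the threshold in both layers. LRP1 was at -0.74 ± 0.19 in the circumferential muscle, -0.02 ± 0.29 in the longitudinal muscle and -0.14 ± 0.13 in the mesenchyme, past the threshold only in the circumferential fit.

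The differences between layers were tested themselves in 1 fit over 36 columns, blocked by sample. In that fit 0 of 614 genes passed for circumferential muscle minus mesenchyme (36 at an unadjusted p under 0.05, smallest adjusted p = 0.46), and 0 of 614 for circumferential minus longitudinal muscle (28 at an unadjusted p under 0.05, smallest adjusted p = 0.88). For LRP1 the effect in the circumferential muscle was lower by 0.52 ± 0.23 than in the mesenchyme (adjusted p = 0.73) and lower by 0.88 ± 0.32 than in the longitudinal muscle (adjusted p = 0.88). For ACTG2 the difference from the mesenchyme was -0.57 ± 0.21 and for MYL9 -0.74 ± 0.27 (adjusted p = 0.46 for both). MYL9 had risen in the mesenchyme by 0.79 ± 0.19 (adjusted p = 0.031) and changed by -0.05 ± 0.24 in the circumferential muscle. For PDGFA the difference from the mesenchyme was 1.10 ± 0.41 (adjusted p = 0.46). Without midgut replicate 1 it was 1.73 (adjusted p = 0.045), and PDGFA and 2 identifier-only genes were then the 3 that passed. That replicate had the highest PDGFA level of the midgut circumferential columns, at 335 CPM, where the others had 92.6 to 122. In no other setting did PDGFA pass this test. HOXD13, at 0 in midgut, has no estimable difference between layers.

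**Figure D5:**
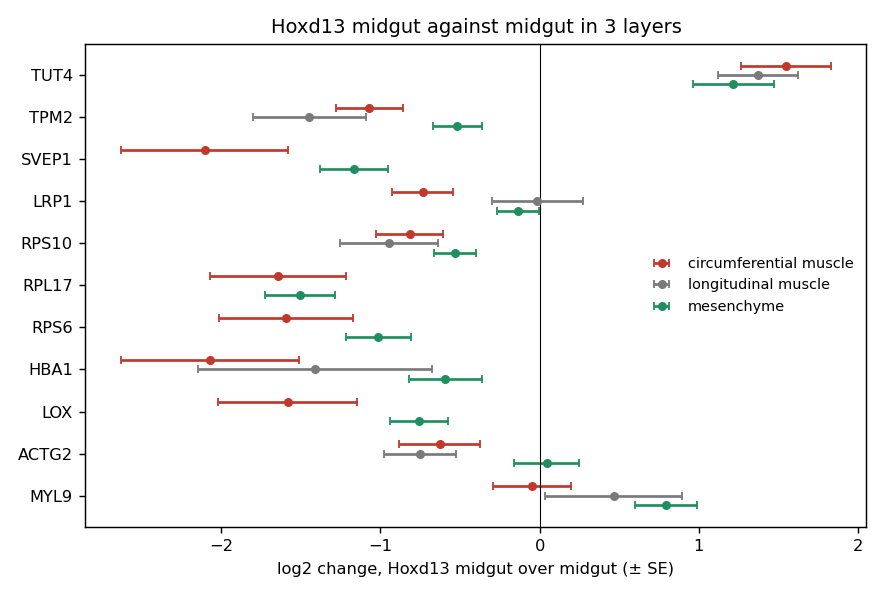
Log2 change of Hoxd13 midgut over midgut ± SE for 11 genes, fitted separately in the circumferential muscle (red), longitudinal muscle (grey) and mesenchyme (green); genes under the low-count filter of a layer have no point there. TUT4 lies above 1 in all 3 layers, and for LRP1 the circumferential value of -0.74 stands apart from values near 0, a difference that did not pass its test.

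Genes that led the mesenchymal comparison were looked up in the muscle. GJA5 rose there by 3.07 ± 0.36 (adjusted p = 1.4e-05), with 144 counts in Hoxd13 midgut and 18 in midgut, beside its 19 and 0 counts in the circumferential muscle. NOV, a secreted matricellular protein, rose there by 1.11 ± 0.19 (adjusted p = 0.0014) and had 32 counts in Hoxd13 midgut and 15 in midgut in the circumferential muscle, with a ratio of 1.38 and a 95% counting interval of 0.728 to 2.75. MYL12B, a regulatory myosin light chain, fell there by 1.90 (SE 0.24, adjusted p = 3.6e-05) and had 2, 0, 1 and 1 counts in Hoxd13 midgut and 1, 8, 3 and 4 in midgut in the circumferential muscle, a ratio of 0.162 (0.0394 to 0.502). SLIT3, a guidance ligand, fell there by 0.95 (SE 0.16, adjusted p = 0.0012) and had 22 and 29 counts here, a ratio of 0.492 (0.269 to 0.886). SULT1C3, a sulfotransferase, had 6 and 2 counts here, and TFRC, the transferrin receptor, 4 and 0, too few to place either group above the other. At these depths the low-count filter asks for about 249 CPM in as many samples as a group holds, so most genes of the mesenchymal comparison could not be tested in the muscle.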

How the data were processed

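Each deposited value is a count, a whole number per gene for 1 layer of 1 sample, and column totals differ, so no normalisation is visible. The submitters' processing notes name genome build GRCg6a and the tools DESeq2, featureCounts, MultiQC, STAR and UMI-tools, with no version. No source used here states whether reads or unique molecules were counted, nor how reads shared between similar genes were treated, so intervals and floors cover counting error only. All 36 count columns matched a sample and a layer, and 0 were left unused. The file held 17138 genes, of which 5337 had an Ensembl identifier in place of a symbol and 7 a symbol that reads as a calendar date; these were left as they stood. By symbol, 11299 genes matched a RefSeq table of assembly GRCg7b, which was used for chromosomes alone (528 genes on Z, 4 on W). That table holds no Ensembl identifiers.

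Counts were tested two-sided with edgeR 4.0.16 in R 4.3.3 (quasi-likelihood test, TMM factors, edgeR's low-count filter at minimum count 10 and total 15). Benjamini-Hochberg adjustment ran over all 349 genes tested, with a threshold of 0.05. The 12 circumferential columns of 3 groups shared the low-count filter, the scaling and 1 estimate of the spread. Other layers were fitted in the same way, and layer differences came from all 36 columns, blocked by sample. SE is the absolute log2 change over the root of the F statistic. Single values per sample were compared by an exact permutation test. Folds against a group at 0 use 3 counts over the group, and ratios of summed counts are relative to total counts, with exact binomial intervals. On that scale the median log2 change of the genes tested was -0.21, so these ratios are not on the scale of the TMM changes. The steps were tested on simulated data.

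No pair of replicates agreed within sampling noise (chi-square tests of their counts), so none was treated as a library deposited more than once; this does not show that the samples are independent. Genes were named by rule: HOXD13, the genes past the threshold (up to 15 in a direction), the next in p up to 10 in a direction, the 3 highest tested members of each list, and members past the threshold. Of genes known by identifier only, 2 that rose are printed. Genes given by counts only, or named from another layer or an alternative, were outside this rule and chosen after their values were seen. The members and lists were chosen with earlier results of these data known. Alternatives were RLE factors, library sizes without mitochondrial genes, total counts, a minimum count of 3, no filter, fits without hindgut or with 1 sample left out, the replicate number as a block, DESeq2 1.42.0 and testing without Z- and W-linked genes. Total-count scaling, testing without sex-linked genes and the leave-one-out values of total counts were chosen after seeing the data. The result of 1 gene list is not reported here.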

Additional observations from a re-analysis of the deposited data

Results flagged for a closer look

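In 7 of 152 groups of 4 samples checked, 1 sample lay far from the other 3 (Dixon's test at 95%, which chance flags in about 1 group in 20). Of these, 4 concerned midgut replicate 2. It was lowest for TPM2, at 1064 CPM, where the others had 1271 to 1303, and for ACTB, at 5762 CPM, where the others had 8220 to 8339. It was highest for COL1A1, at 10506 CPM, where the others had 6850 to 6952, and for COL1A2, at 4628 CPM, where the others had 2718 to 2854. Midgut replicate 1 was highest for CALM2, at 409 CPM, where the others had 220 to 231, and for PDGFA, at 335 CPM, where the others had 92.6 to 122. Hoxd13 midgut replicate 4 was highest for MYH11, at 2178 CPM, where the others had 1082 to 1180. None of these samples was left out of the values in the results above.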

How the results depend on the processing

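The count of 17 genes past the threshold was 15 with RLE factors, 17 with library sizes without mitochondrial genes, 15 with a minimum count of 3 and 12 with DESeq2 (8 higher, 4 lower, all among the 17). It was 28 with no filter (26 higher, 2 lower; 8 of the 17), 39 with Hoxd13 midgut and midgut columns alone (26 higher, 13 lower; 14 of the 17) and 37 without hindgut replicate 1 (21 higher, 16 lower; all 17), a sample in neither group. Without Z- and W-linked genes it was 11 (7 higher, 4 lower). Scaled by total counts it was 24 (5 higher, 19 lower; 13 of the 17), and the median log2 change was -0.21, against 0.0012 with TMM. With 1 sample left out it was 5 to 9 (7, 5, 5 and 9 without Hoxd13 midgut replicates 1 to 4, and 6, 8, 8 and 6 without midgut replicates 1 to 4). With the replicate block it was 19 (10 higher, 9 lower; all 17); same-numbered samples correlated at -0.22, 0.15, -0.053 and 0.14, and 2 of 4 correlated best with their own number. Causes of these moves were not tested. The layer difference against mesenchyme gave 0 to 3 genes with 1 sample left out and 0 in the other settings; that against longitudinal muscle gave 0 in every setting. The mitochondrial difference was 5.18 to 7.90 points with 1 sample left out, and 3.91 as a share of tested genes; the difference in total counts was 13450 to 23488. None of the 17 genes changed sign in any setting. Of 56 named genes that did not pass, 20 did. With no low-count filter, MYLK was at 0.13, KRT7 at 0.13, MYL9 at 0.22, TLN1 at 0.12, PDLIM7 at 0.098, SERPINH1 at 0.15, LTBP1 at 0.070, TGFBI at 0.094, FGFR1 at 0.099, NOTCH1 at 0.018, HSPB1 at 0.20, NFIA at 0.14, MAP1B at 0.060. With a minimum count of 3, KRT7 was at 0.0078, MYL9 at 0.077, SERPINH1 at 0.0073, HSPB1 at 0.062, NFIA at 0.0056. With RLE size factors, ACTB was at -0.016, HSPA8 at -0.012, ATP5B at -0.0073. With the replicate block, ACTB was at -0.0038. Scaled by total counts, ACTB was at -0.20, DES at -0.061, CALM2 at -0.20, HSPA8 at -0.21, TOP2A at -0.029, ATP5B at -0.21. With library sizes without mitochondrial genes, MYL9 was at 0.012. With DESeq2, MYL9 was at 0.025, HSPB1 at 0.0081. With 1 sample left out, the ranges were KRT7 -0.29 to 0.24, CDH1 -0.44 to 0.20, ACTB -0.089 to 0.090, MYL9 -0.15 to 0.17, TLN1 -0.24 to 0.13, PDLIM7 -0.40 to 0.081, CALM2 -0.11 to 0.27, SERPINH1 -0.24 to 0.10, TGFBI -0.30 to 0.11, FGFR1 -0.43 to 0.10, NOTCH1 -0.50 to 0.16, HSPB1 -0.30 to 0.23, HSPA8 -0.13 to 0.17, TOP2A -0.072 to 0.44, NFIA -0.41 to 0.064, ATP5B -0.17 to 0.24, MAP1B -0.46 to 0.083. Depth limits the test to 349 of 12365 genes, and low-count genes below it have counting intervals only.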

Other observations

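Of 40 gut mesoderm transcription factors in the file, 3 were tested, and MEIS1 (0.42 ± 0.31), NFIA (-0.12 ± 0.27) and NFIX (-0.58 ± 0.49) did not pass edgeR's test. The 40 genes summed to 2894 to 3561 CPM in Hoxd13 midgut and 3171 to 3525 CPM in midgut. TBX3, a T-box factor, had 29 counts in Hoxd13 midgut and 38 in midgut, with a ratio of 0.495 and a counting interval of 0.294 to 0.824. NKX3-2, a homeobox factor of gut mesoderm, had 4 counts in Hoxd13 midgut and 10 in midgut, with a ratio of 0.259 and a counting interval of 0.0594 to 0.899. TBX3 and NKX3-2 were chosen after their values were seen. Low-count members of the list went both ways. The ratio was 3.03 for ETV6 (counting interval 1.23 to 8.94), 1.89 for FOXF2, 1.46 for TCF21 and 0.778 for FOXF1.

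Proliferation genes (28 in the file) summed to 1249 to 1808 CPM in Hoxd13 midgut and 1489 to 1791 CPM in midgut. TOP2A, a topoisomerase of dividing cells, was at 327 ± 131 CPM in Hoxd13 midgut and 282 ± 60.9 CPM in midgut (SD, n = 4 each) and did not pass. Markers of interstitial cells of Cajal, the pacemaker cells of the gut wall, had 32 counts in Hoxd13 midgut and 39 in midgut, of which KIT, the receptor that defines these cells, had 5 and 11.

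RAB6A, a small GTPase of Golgi traffic, had 4, 5, 4 and 8 counts in Hoxd13 midgut and 2, 186, 2 and 3 counts in midgut, and was chosen after its values were seen. It passed with no low-count filter (adjusted p = 4.3e-14), where nearly all midgut counts came from replicate 2.

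The lists of pericyte, calcium handling, mechanically induced and nuclear-encoded respiratory chain genes had few members past the low-count filter, and none passed edgeR's test. The pericyte markers RGS5 and MCAM changed by -0.59 ± 0.48 and 0.35 ± 0.25. The calcium pump gene ATP2A2 and the calmodulin gene CALM2 changed by -0.45 ± 0.40 and 0.015 ± 0.31. The heat shock genes HSP90AA1, HSPB1 and HSPA8, the tested members of the mechanically induced list, changed by -0.42 ± 0.31, -0.063 ± 0.30 and 0.00083 ± 0.29, and ATP5B, a subunit of ATP synthase, by 0.0020 ± 0.36. The signs of CALM2, HSPB1, HSPA8 and ATP5B differed between settings.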
